A study of Mus musculus with 12 samples.

Results

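Microglia, the resident macrophages of the brain, were followed here through 9 genes, 4 that mark their homeostatic state (P2ry12, Tmem119, Cx3cr1 and Csf1r) and 5 that mark the disease-associated state (Trem2, Tyrobp, Apoe, Cst7 and Itgax). They were taken by symbol from the 24985 genes of the deposited count table, and each of the 9 was present once. No measured value entered this choice, although earlier results of these data were known when the genes were chosen.

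In the healthy brain, microglia survey their surroundings with receptors such as P2RY12, which senses nucleotides, and CX3CR1, which binds the neuronal chemokine CX3CL1, and they depend on the growth factor receptor CSF1R for survival. Near amyloid, dying neurons or damaged myelin, part of these cells lower the homeostatic genes and take on a disease-associated program that is described in 2 stages. The first stage includes Tyrobp and Apoe, and the second, with Cst7 and Itgax, depends on the lipid-sensing receptor TREM2, which signals through its adaptor TYROBP.

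RNA was sequenced from the dorsal hippocampus of 12 wild-type C57Bl6/J mice, 3 in each of 4 groups. All had received 1 unilateral intracranial injection at 6 months of age, either of PBS or of 1 µg AD tau, the sarkosyl-insoluble tau of brains with Alzheimer's disease. For the next 6 months they ate control chow or chow with 5% sodium acetate, which gives 2 PBS-injected groups, PBS-control and PBS-acetate, and 2 tau-injected groups called Tau-control and Tau-acetate. The injected, right side was dissected 24 hours after a remote memory recall test. AD tau seeds the aggregation of the mouse's own tau, and the mice carry no tau transgene. The question of the comparisons was whether the microglial genes differed with tau, with dietary acetate, or with tau in a way that depended on the diet.

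The libraries held from 12983233 to 20218340 gene-assigned reads. The common biological coefficient of variation was 7.25%. The mice are labelled male, yet Xist, which coats the silenced X in females, had 13583 to 25991 counts in every library, and 4 genes of the Y chromosome (Ddx3y, Eif2s3y, Kdm5d and Uty) had 0 counts in total. All groups share this, and the labelled sex is not borne out by the counts. For the labelled hippocampus, summed CA1 markers were 388 to 823 CPM, CA3 markers 192 to 469 CPM and dentate granule markers 422 to 692 CPM over the 12 mice. Microglial RNA was present in every library. All 15 genes of a separate pan-microglia list (complement C1q, Aif1, Itgam, Spi1 and others, with no gene of the 9) were counted, and their summed level was 304 to 349 CPM (counts per 1000000, after TMM normalization) in 11 mice and 425 CPM in Tau-acetate mouse 1. The markers of border macrophages summed to 2.16 to 4.95 CPM, and those of monocytes and neutrophils to 0.309 to 1.31 CPM. In whole tissue, fewer cells of a type and less RNA per cell cannot be told apart.

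Set per kilobase of exon, so that genes of different length can be compared, the 9 genes spanned a wide range of levels. Apoe, the lipid carrier that astrocytes also make in quantity, came first with a median of 668 CPM per kb over the 12 mice (range 570 to 743). Csf1r followed with a median of 17.0, Tyrobp with 16.5, P2ry12 with 14.6, Cx3cr1 with 13.2 and Tmem119 with 11.2 CPM per kb. From Csf1r down to Tmem119 each gene's range over the mice overlapped that of the next, so these neighbours were not separated by more than the spread between mice. Trem2 lay lower on this scale, at a median of 2.33 CPM per kb. Its range of 1.64 to 2.74 met neither that of the gene above nor that of the gene below. The length taken was that of all annotated exons of a gene joined, 4946 bases for Trem2 against 2315 for Tmem119 and 667 for Tyrobp. How much of it the counted transcripts carry was not tested, so the lower place of Trem2 depends on this length. The 2 genes of the second stage were near the detection limit. Cst7, which encodes the protease inhibitor cystatin F, had a median of 0.325 CPM per kb, and Itgax, which encodes the integrin CD11c, had 0.0900. Their counts were 2 to 18 per mouse for Cst7 and 2 to 19 for Itgax, and both stayed below the filter on low counts that the other 7 passed.

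Promoters of 3 disease-associated genes are shown, those of Cst7 and Itgax because their highest group mean was the most times the lowest among the 9 genes (5.28 and 2.72 times, from few reads), and that of Trem2 because it encodes the receptor on which the second stage depends. The sequences are RefSeq's, on GRCm38.p6, from 250 to 11 bases before the annotated start, and capitals mark AGGAAG or GAGGAA, short forms of the motif of the macrophage factor PU.1, on either strand. Trem2 lies at chr17:48346151-48346390, Cst7 at chr2:150570165-150570404 and Itgax at chr7:128129300-128129539, all on the plus strand.
Trem2: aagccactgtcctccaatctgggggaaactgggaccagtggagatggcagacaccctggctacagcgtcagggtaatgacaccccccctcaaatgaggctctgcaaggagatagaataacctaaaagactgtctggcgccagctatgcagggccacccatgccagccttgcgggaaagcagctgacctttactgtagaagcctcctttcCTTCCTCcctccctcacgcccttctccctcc
Cst7: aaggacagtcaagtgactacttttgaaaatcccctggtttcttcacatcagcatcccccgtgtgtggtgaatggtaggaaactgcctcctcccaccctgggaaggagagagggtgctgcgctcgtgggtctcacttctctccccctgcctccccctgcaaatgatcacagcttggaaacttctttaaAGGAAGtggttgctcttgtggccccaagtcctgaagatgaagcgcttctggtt
Itgax: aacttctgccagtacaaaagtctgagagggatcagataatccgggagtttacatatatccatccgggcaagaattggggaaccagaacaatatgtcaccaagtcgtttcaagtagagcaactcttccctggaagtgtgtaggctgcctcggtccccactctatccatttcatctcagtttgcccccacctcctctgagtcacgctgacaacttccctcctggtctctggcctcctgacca
Trem2 held both motifs as 1 overlapping match and Cst7 held AGGAAG, whereas Itgax held neither in this window. Of 32851 promoter windows of the same length, 37.9% held at least 1 of both motifs, so a match is common and is no sign of binding.

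On the control diet, none of the 9 genes passed the test of tau injection against PBS. The quasi-likelihood test of edgeR, with Benjamini-Hochberg adjustment over all genes, called 0 of the 7 tested genes (adjusted p under 0.1), where 0.0136% of all 14742 tested genes were called. At an unadjusted p below 0.05 the count was also 0, where 9.65% of all genes passed, and DESeq2 called 0. Csf1r alone had groups that did not overlap, with all 3 Tau-control mice above all 3 PBS-control mice, against 5.61% of all genes with a count that separated in this direction. Its log2 fold change was 0.14 (standard error 0.07, adjusted p = 0.546 by edgeR's quasi-likelihood test). Among the tested disease-associated genes the log2 fold changes were -0.01 for Trem2, -0.17 for Tyrobp and 0.03 for Apoe. The 95% interval for Trem2 ran from -0.35 to 0.33, and a difference inside it was not detectable at this depth and group size.

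On the acetate diet, the values of tau-injected mice lay higher in 6 of the 9 genes, 3 homeostatic and 3 disease-associated, but none passed the threshold. The test called 0 of 7, where 0.136% of all genes were called, and DESeq2 called 0. Before adjustment 4 genes, Tmem119, Cx3cr1, Csf1r and Tyrobp, had p below 0.05, where 10.3% of all genes did. In 5 of the 9 genes (Tmem119, Cx3cr1, Tyrobp, Cst7 and Itgax) all 3 Tau-acetate mice lay above all 3 PBS-acetate mice, where 6.36% of all genes with a count did so. An exact two-sided permutation test of 3 mice against 3 cannot give a p below 0.1. Groups that do not overlap always give this value, so the test adds nothing to the separation of these 5. Trem2, Apoe and P2ry12 had log2 fold changes of -0.00, -0.01 and -0.04. Other cell markers lay the same way in this comparison. Oligodendrocyte markers had log2 fold changes above 0 in 10 of 10 genes (median 0.47, 7 with an unadjusted p below 0.05, 0 called), with summed levels of 4501 to 6200 CPM in PBS-acetate and 5434 to 8738 CPM in Tau-acetate mice. Choroid plexus markers did so in 7 of 7 (median 2.19, 4 with an unadjusted p below 0.05, 0 called), with summed levels of 69.1 to 84.7 CPM in PBS-acetate mice, and of 84.6, 84.9 and 492 CPM in the Tau-acetate mice. Their part in the values of the 9 genes was not tested. This comparison has no mouse in common with that on the control diet.

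Without tau, the acetate diet went with a change in 1 of the 9 genes. Apoe rose in PBS-acetate against PBS-control mice, which is 1 of 7 tested genes in a comparison where 8.84% of all genes were called, 1303 in number. Its adjusted p of 0.0961 by edgeR lay near the threshold, and the call was lost in 10 of the 12 fits that left out a mouse, with DESeq2's size factors, with the replicate block and with either score as a covariate. DESeq2 also called Apoe alone among the 9. Apoe was also the gene of the 7 with an unadjusted p below 0.05, where 20.8% of all genes had one. Of the 9 genes, 1 (Apoe) separated upward and 2 (Cst7 and Itgax) separated downward, where 10.7% of all genes with a count separated in each direction. PBS-control mice serve in this comparison and in that of tau on the control diet.

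In tau-injected mice the acetate diet changed none of the 9 past the threshold. The test called 0 of 7, where 0.0611% of all genes were called, and DESeq2 called 0 of the 5 to which it gave an adjusted p. Tyrobp and Apoe had an unadjusted p below 0.05, where 10.9% of all genes did. In 4 of the 9 genes (Cx3cr1, Tyrobp, Apoe and Itgax) all Tau-acetate mice lay above all Tau-control mice, where 5.71% of all genes with a count did so. The Tau-acetate mice are shared with the tau comparison on the acetate diet, so the values of both are set side by side below and are not counted as independent.

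The direct test of whether diet and injection combine, the interaction, called 0 of 7 where 1.56% of all genes were called. DESeq2 called 0 as well, and Tyrobp alone had an unadjusted p below 0.05, where 13% of all genes did. The interaction is the tau difference on the acetate diet minus that on the control diet.

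**Figure D1:**
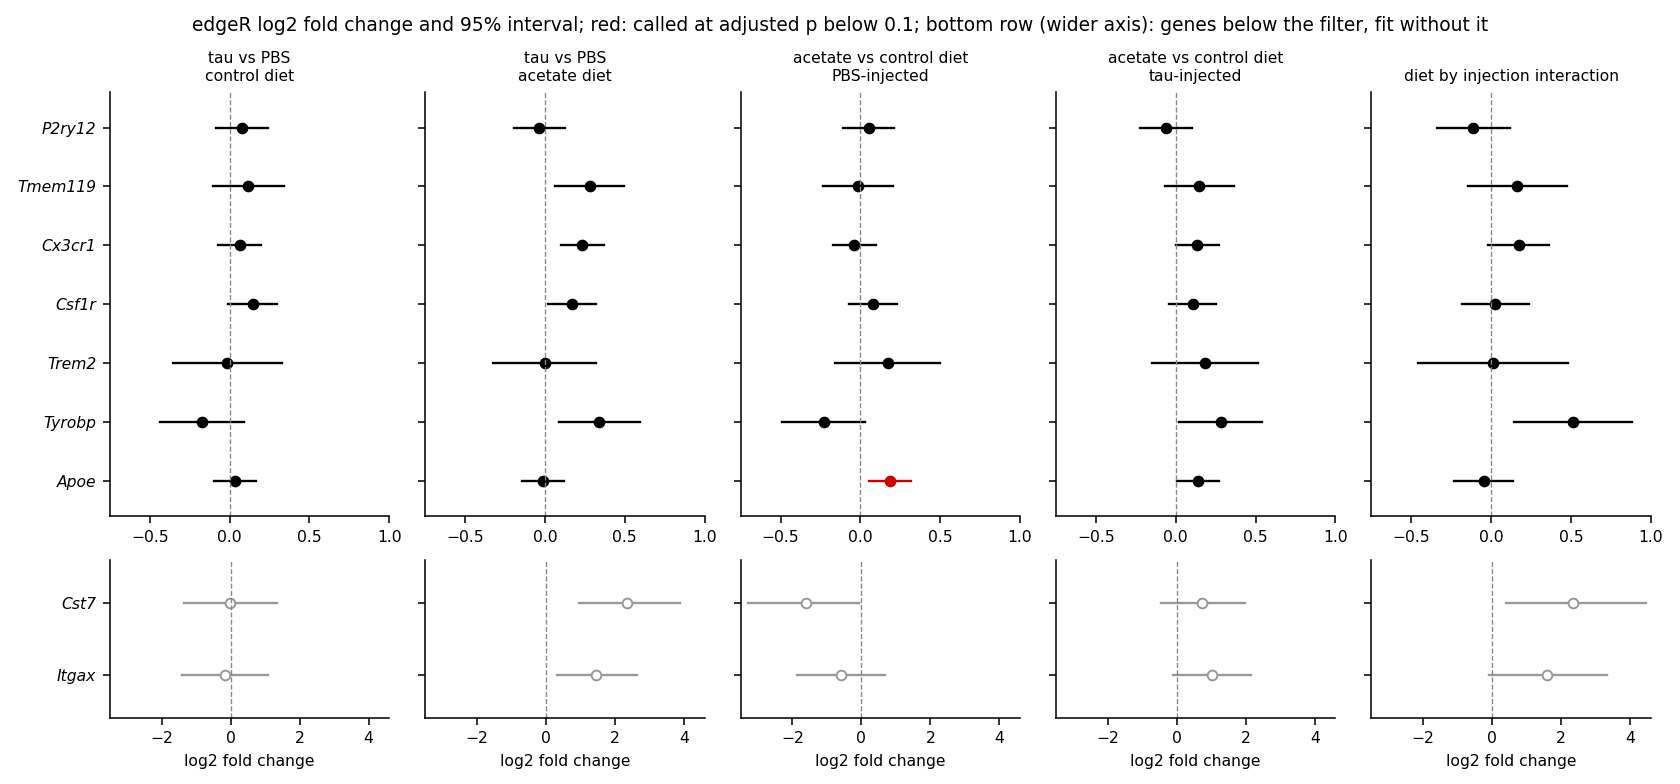
Log2 fold changes (x axis) of the 9 genes (y axis) in the 4 comparisons and the interaction, with 95% intervals as horizontal lines. The upper row shows the 7 tested genes, of which Apoe (red) was called in PBS-injected mice by diet, and the lower row, on a wider axis, shows Cst7 and Itgax from the fit without the filter, with log2 fold changes of 2.35 and 1.45 for tau on the acetate diet.

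Among the homeostatic genes, P2ry12 was the steadiest. Its group means were 36.2 ± 1.23 CPM in PBS-control, 37.4 ± 3.41 in PBS-acetate, 38.1 ± 1.42 in Tau-control and 36.6 ± 2.45 CPM in Tau-acetate mice (SD, n = 3 each). The single mice ran from 33.8 to 41.4 CPM, the groups overlapped throughout, and the highest group mean was 1.05 times the lowest.

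Cx3cr1 (chr9:119901616-120069879 of GRCm38, minus strand, by GENCODE) was at 59.4, 55.5 and 58.7 CPM in the PBS-control mice, 53.6, 59.3 and 56.2 in the PBS-acetate mice, 62.8, 62.4 and 56.1 in the Tau-control mice, and 69.9, 63.6 and 65.3 CPM in the Tau-acetate mice. The Tau-acetate mice were the 3 highest of all 12. On the acetate diet the log2 fold change with tau was 0.23 (standard error 0.06, adjusted p = 0.190 by edgeR's quasi-likelihood test), and with diet in tau-injected mice it was 0.13 (standard error 0.06, adjusted p = 0.466 by the same edgeR test).

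Tmem119, a surface protein of unclear function found on microglia and not on other brain macrophages, had 23.0, 22.5 and 25.8 CPM in PBS-control, 26.3, 21.3 and 23.1 in PBS-acetate, 28.6, 21.4 and 27.5 in Tau-control, and 29.4, 28.7 and 27.6 CPM in Tau-acetate mice. Again the Tau-acetate mice were all above the PBS-acetate mice, while Tau-control mouse 2 was among the lowest. The log2 fold change with tau on the acetate diet was 0.28 (standard error 0.10, adjusted p = 0.347 by edgeR's quasi-likelihood test).

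Csf1r spread more within Tau-acetate than in the other groups. Its values there were 125, 98.1 and 109 CPM, against 98.1, 103 and 94.6 in PBS-acetate mice, so the groups overlapped. The highest was Tau-acetate mouse 1, which also had the highest pan-microglia level, and without it the log2 fold change with tau on the acetate diet went from 0.17 to 0.07. With the pan-microglia score as a covariate that of Csf1r was 0.06 and that of Cx3cr1 was 0.17 (adjusted p = 0.591 by edgeR's quasi-likelihood test). What part microglial content has in these values was not tested further.

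The exons of P2ry12, Cx3cr1 and Csf1r overlap exons of a gene on the opposite strand (Med12l, Gm33858 and Hmgxb3) in GENCODE. The reads were counted by strand, but the library kit is named as directional in the labels and by the number of a non-directional kit in the study's methods, so whether these reads are fully separated is uncertain.

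**Figure D2:**
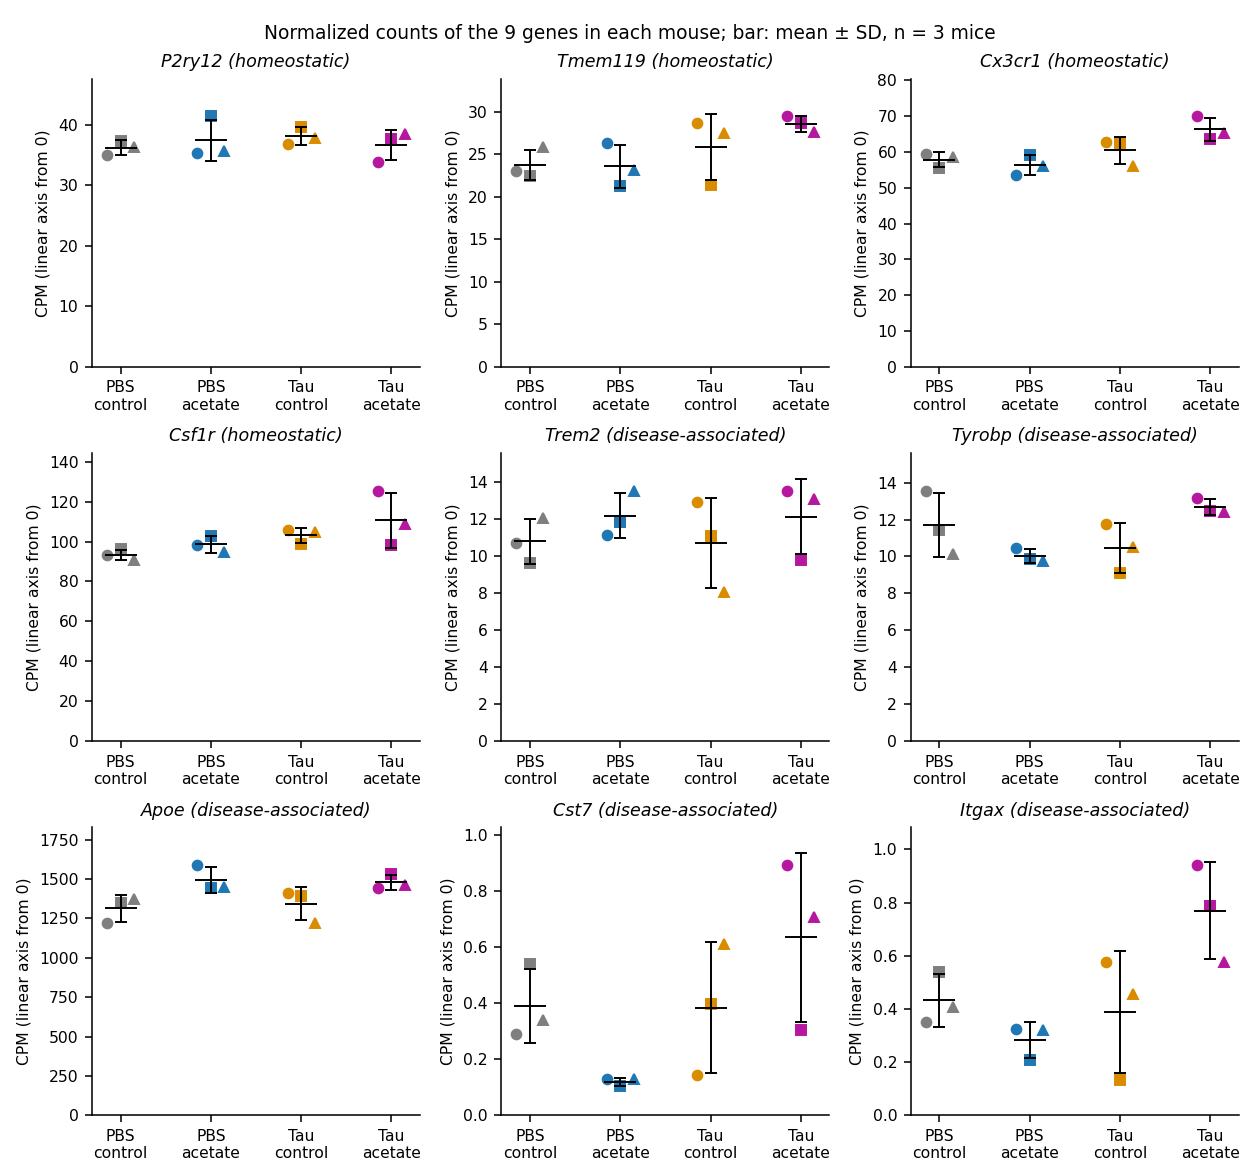
CPM of each gene (y axes, linear from 0) in the 12 mice by group (x axis), with points for mice 1 (circle), 2 (square) and 3 (triangle) and bars for the mean ± SD of 3 mice. The 3 Tau-acetate mice are the highest of all for Cx3cr1, the 3 PBS-acetate mice are the lowest for Cst7, and P2ry12 is level across groups.

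The receptor and its adaptor were both uncalled in all comparisons. Trem2 (chr17:48346401-48354147, plus strand) had 10.7, 9.65 and 12.1 CPM in PBS-control, 11.2, 11.9 and 13.5 in PBS-acetate, 12.9, 11.1 and 8.09 in Tau-control, and 13.5, 9.80 and 13.1 CPM in Tau-acetate mice. Every pair of groups overlapped. The log2 fold change with diet was 0.17 in PBS-injected and 0.18 in tau-injected mice, with adjusted p = 0.578 and 0.729 by edgeR's quasi-likelihood test.

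Tyrobp, the adaptor (chr7:30413760-30417585, plus strand), had 13.6, 11.4 and 10.2 CPM in PBS-control, 10.5, 9.85 and 9.77 in PBS-acetate, 11.8, 9.09 and 10.5 in Tau-control, and 13.2, 12.5 and 12.4 CPM in Tau-acetate mice. The Tau-acetate mice lay above all PBS-acetate and all Tau-control mice, but PBS-control mouse 1 was the highest of the 12. Tyrobp's log2 fold change with tau was -0.17 on the control diet and 0.34 (standard error 0.12, adjusted p = 0.334 by edgeR's quasi-likelihood test) on the acetate diet. The interaction was 0.51 (standard error 0.18, unadjusted p = 0.00889, adjusted p = 0.196 by the same edgeR test), the smallest p of the 7 tested genes there. Over the 12 mice, Trem2 and Tyrobp had a Pearson r of 0.05 on log2 CPM, given as a description.

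Apoe (chr7:19696109-19699188, minus strand) was at 1218, 1349.9 and 1373 CPM in PBS-control mice and at 1589, 1443 and 1448 CPM in PBS-acetate mice, with no overlap. In tau-injected mice it was at 1414, 1393 and 1224 CPM on the control diet and at 1442, 1534 and 1463 CPM on acetate, again with no overlap. Group means rose from 1314 ± 83.2 to 1493 ± 83.2 CPM (SD, n = 3) with acetate in PBS-injected mice, by 0.19 on the log2 scale (standard error 0.06, adjusted p = 0.0961 by edgeR's quasi-likelihood test). In tau-injected mice the means were 1343 ± 104 and 1479.9 ± 48.5 CPM (SD, n = 3), apart by 0.14 on the log2 scale (standard error 0.06, adjusted p = 0.420 by the same edgeR test). The interaction for Apoe was -0.05 (standard error 0.09, adjusted p = 0.895 by edgeR), so the effect of diet was not shown to differ between injections. The call lay close to the threshold and was lost without each of 10 mice, all but PBS-acetate mouse 3 and Tau-control mouse 3, with adjusted p up to 0.349 without PBS-control mouse 1, where the log2 fold change was 0.12. It was also lost with the CA1 minus CA3 score as a covariate (log2 fold change 0.14, adjusted p = 0.798 by edgeR), a fit in which no gene was called in this comparison.

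Markers of other cells moved in the same comparison as Apoe. Summed CA3 pyramidal markers were 382 to 469 CPM in PBS-control and 192 to 327 CPM in PBS-acetate mice, with 4 of 6 called lower, and CA1 markers were 388 to 514 and 611 to 823 CPM, with 3 of 5 called higher. Of 12 astrocyte markers, 2 rose (Slc1a3, log2 fold change 0.23, and Aldoc, 0.20) and Aqp4 fell by 0.20 on the log2 scale. Of 10 oligodendrocyte markers 4 fell, and their summed level was 7189 to 9271 CPM in PBS-control and 4501 to 6200 CPM in PBS-acetate mice. Choroid plexus markers were at 93.7 to 125 and 69.1 to 84.7 CPM, with 6 of 7 log2 fold changes below 0 and 2 called lower. Of all genes, 8.84% were called in this comparison. When 1 mouse was left out, the oligodendrocyte calls were lost in 1 (Gjb1), 9 (Cldn11), 10 (Ermn) and 10 (Mobp) of 12 fits. The calls of the CA1, CA3, astrocyte and choroid plexus markers were lost in 3 to 7 of 12 fits. The part of these markers in the Apoe difference was not tested, since the covariate above separates the same 2 groups of mice.

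Cst7 and Itgax rest on few reads, so their counts are given. Cst7 lies at chr2:150570415-150578944 and Itgax at chr7:128129547-128150657, both on the plus strand. Cst7 had 5, 7 and 5 reads in the PBS-control mice, 2, 2 and 2 in the PBS-acetate mice, 2, 6 and 8 in the Tau-control mice, and 18, 5 and 11 in the Tau-acetate mice. Itgax had 6, 7 and 6, then 5, 4 and 5, then 8, 2 and 6, and 19, 13 and 9 reads in the same order. In both, the PBS-acetate group was lowest and the Tau-acetate group highest, with no overlap between these groups, and the Tau-control mice spanned the range of the PBS-control mice.

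Summed over 3 mice, Cst7 had 34 reads in Tau-acetate and 6 in PBS-acetate mice, a depth-adjusted ratio of 5.45 with a 95% exact interval of 2.26 to 15.9. For Itgax the sums were 41 and 14, a ratio of 2.82 (interval 1.504 to 5.59). These intervals cover counting error only and not the spread between mice. In the fit without the filter, which takes that spread into account, the log2 fold changes were 2.35 for Cst7 (standard error 0.71, adjusted p = 0.201) and 1.45 for Itgax (standard error 0.56, adjusted p = 0.413) by edgeR's quasi-likelihood test, where 0.189% of all 19628 genes were called.

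With diet in PBS-injected mice, Cst7 went the other way, at 6 against 17 reads, a ratio of 0.319 (interval 0.103 to 0.847, counting error only) and a fitted log2 difference of -1.61 (standard error 0.79, adjusted p = 0.277 by the same edgeR test, where 5.67% of all genes with a count were called). With tau on the control diet the sums were 16 and 17 reads for Cst7 and 16 and 19 for Itgax. Tau-acetate mouse 1 held the most reads of both genes. Without it the log2 fold changes with tau on the acetate diet were 2.00 for Cst7 and 1.27 for Itgax, with adjusted p = 0.533 and 0.726 by edgeR.

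To set the homeostatic against the disease-associated state in each mouse, the log2 CPM of each gene was centred on its mean over the 12 mice and averaged over the 4 and over the 5 genes. The homeostatic score was -0.09 to -0.05 in PBS-control, -0.09 to -0.02 in PBS-acetate, -0.03 to 0.08 in Tau-control and 0.06 to 0.16 in Tau-acetate mice. The disease-associated score was -0.07 to 0.12, -0.36 to -0.21, -0.24 to 0.00 and 0.15 to 0.53 in the same order. The Tau-acetate mice had the highest group range of the disease-associated score and the highest group mean of the homeostatic score. Single genes differed from these averages, since P2ry12 had log2 fold changes of -0.04 and -0.06 in Tau-acetate against PBS-acetate and against Tau-control mice, and Trem2 and Apoe were at -0.00 and -0.01 against PBS-acetate mice.

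The disease-associated minus homeostatic score was 0.08 ± 0.10 in PBS-control, -0.20 ± 0.12 in PBS-acetate, -0.11 ± 0.10 in Tau-control and 0.23 ± 0.15 in Tau-acetate mice (SD, n = 3). It rests on the genes with the fewest reads. Without Cst7 and Itgax the group means were 0.04, 0.07, -0.12 and 0.01, with Tau-acetate and PBS-acetate mice overlapping.

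**Figure D3:**
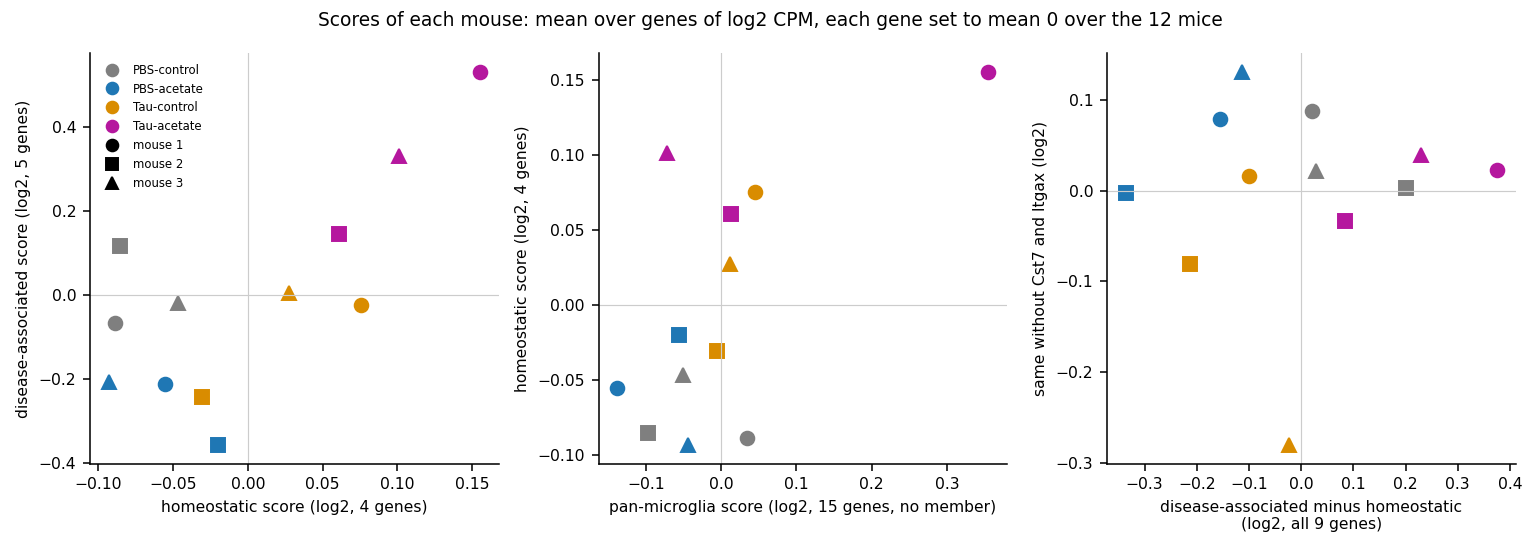
Scores of each mouse on the log2 scale, coloured by group: disease-associated against homeostatic (left), homeostatic against the pan-microglia list (middle), and the difference score with and without Cst7 and Itgax (right). Tau-acetate mice sit at the upper right of the left panel, with mouse 1 apart at a pan-microglia score of 0.36, and their difference scores of 0.08 to 0.38 shrink to between -0.03 and 0.04 without Cst7 and Itgax.

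The genes around these 9 were described from lists fixed for this purpose. None of 11 further homeostatic genes was called in any comparison. On the acetate diet their median log2 fold change with tau was 0.07, against -0.00 over all tested genes, and the smallest p was that of Selplg (log2 fold change 0.26, adjusted p = 0.249 by edgeR's quasi-likelihood test), a ligand for adhesion receptors. Of the 15 pan-microglia genes, 14 had log2 fold changes above 0 there, with a median of 0.20 and 0 called. Their mean score was 0.36, 0.01 and -0.07 in Tau-acetate mice 1, 2 and 3. In PBS-acetate mice it was -0.14 to -0.04, so the groups overlapped and mouse 1 stood highest. C1qb, a subunit of complement C1q, had the smallest p (log2 fold change 0.35, adjusted p = 0.168 by edgeR).

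Of 7 other first-stage genes, Fth1 was called with diet in PBS-injected mice and in the interaction. Of 18 other second-stage genes, Ank was called with diet in PBS-injected mice, and Csf1 and Lgals3 in the interaction. Of all genes, 8.84% were called with diet in PBS-injected mice and 1.56% in the interaction. Fth1, the ferritin heavy chain, which oligodendrocytes also carry in quantity, fell by 0.25 on the log2 scale with acetate in PBS-injected mice (standard error 0.07, adjusted p = 0.0428 by edgeR's quasi-likelihood test). Its means were 2610.4 ± 164, 2193 ± 9.10, 2157 ± 90.7 and 2502 ± 261 CPM in PBS-control, in PBS-acetate, in Tau-control and in Tau-acetate mice (SD, n = 3), and the interaction was 0.47 (standard error 0.09, adjusted p = 0.0466 by edgeR). Oligodendrocyte markers followed the same order of groups, with mean scores of 0.33, -0.24, -0.30 and 0.20, and their part in the Fth1 values was not tested. Ank, a membrane exporter linked to pyrophosphate, fell by 0.20 (standard error 0.05, adjusted p = 0.0458 by edgeR) with acetate in PBS-injected mice. In that comparison the call of Fth1 was lost without PBS-control mouse 1 or 3 or PBS-acetate mouse 1 or 2, and that of Ank without PBS-control mouse 3 or PBS-acetate mouse 1 or 2. The interaction call of Fth1 was lost without PBS-acetate mouse 2 or Tau-acetate mouse 1.

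Lgals3, which encodes galectin-3, had 23, 23 and 22 reads in PBS-control, 11, 15 and 9 in PBS-acetate, 5, 13 and 9 in Tau-control, and 55, 17 and 16 in Tau-acetate mice. All PBS-control and Tau-acetate mice lay above all mice of the other groups in CPM, and the interaction was 2.47 (standard error 0.61, adjusted p = 0.0749 by edgeR's quasi-likelihood test). Tau-acetate mouse 1 was again the highest, and the call was lost without it and without 8 other mice. Csf1, a ligand of CSF1R, had means of 39.0, 34.7, 32.0 and 38.8 CPM in the same order and an interaction of 0.45 (standard error 0.11, adjusted p = 0.0766 by edgeR), a call lost without 8 of the 12 mice.

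Il34, the second ligand of CSF1R and made mainly by neurons, was at 46.3 ± 5.88 CPM in PBS-control and 30.3 ± 7.04 CPM in PBS-acetate mice (SD, n = 3), and fell by 0.62 on the log2 scale (standard error 0.17, adjusted p = 0.0637 by edgeR's quasi-likelihood test). It was 1 of 7 ligand and TGF-beta genes called there, near the 8.84% of all genes. In the TREM2 and TYROBP signalling list, with 8 of 9 genes tested, Blnk, a B-cell linker and adaptor, was called. It fell by 0.99 (standard error 0.29, adjusted p = 0.0712 by edgeR) with acetate in PBS-injected mice, from 8.998 ± 1.08 to 4.53 ± 1.35 CPM (SD, n = 3). The call of Il34 was lost without PBS-control mouse 1 or 3 or PBS-acetate mouse 1 or 2, and that of Blnk without any 1 PBS-control mouse or PBS-acetate mouse 1 or 2. The kinase Syk and the other 6 were not called in any comparison. Summed CA3 markers had the same order of group means as Il34 and Blnk. Their mean was highest in PBS-control mice (429 CPM) and lowest in PBS-acetate mice (241 CPM). With tau it was 334 CPM on the control diet and 281 CPM on acetate, where Il34 had 40.8 and 32.7 CPM and Blnk 6.69 and 5.62 CPM. The part of CA3 markers in the Il34 and Blnk values was not tested.

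Apoe's partners in lipid transport gave 2 calls of 11 in the same comparison, where 8.84% of all genes were called, and 0 in the others. The receptor Lrp1 rose from 506 ± 36.4 to 596 ± 40.2 CPM (log2 fold change 0.24, standard error 0.06, adjusted p = 0.0487 by edgeR's quasi-likelihood test) and the exporter Abca1 from 50.3 ± 3.68 to 62.2 ± 8.19 CPM (log2 fold change 0.31, standard error 0.09, adjusted p = 0.0545 by edgeR). Both are also expressed by astrocytes. Both calls were lost without PBS-control mouse 3 or PBS-acetate mouse 1 or 2, and that of Abca1 also without PBS-control mouse 1. Of 4 lysosomal proteases tied to cystatin F (3 cathepsins and legumain), 0 were called in any comparison, and Ctsc had the smallest p with diet in PBS-injected mice (log2 fold change -0.58, adjusted p = 0.118 by edgeR).

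**Figure D4:**
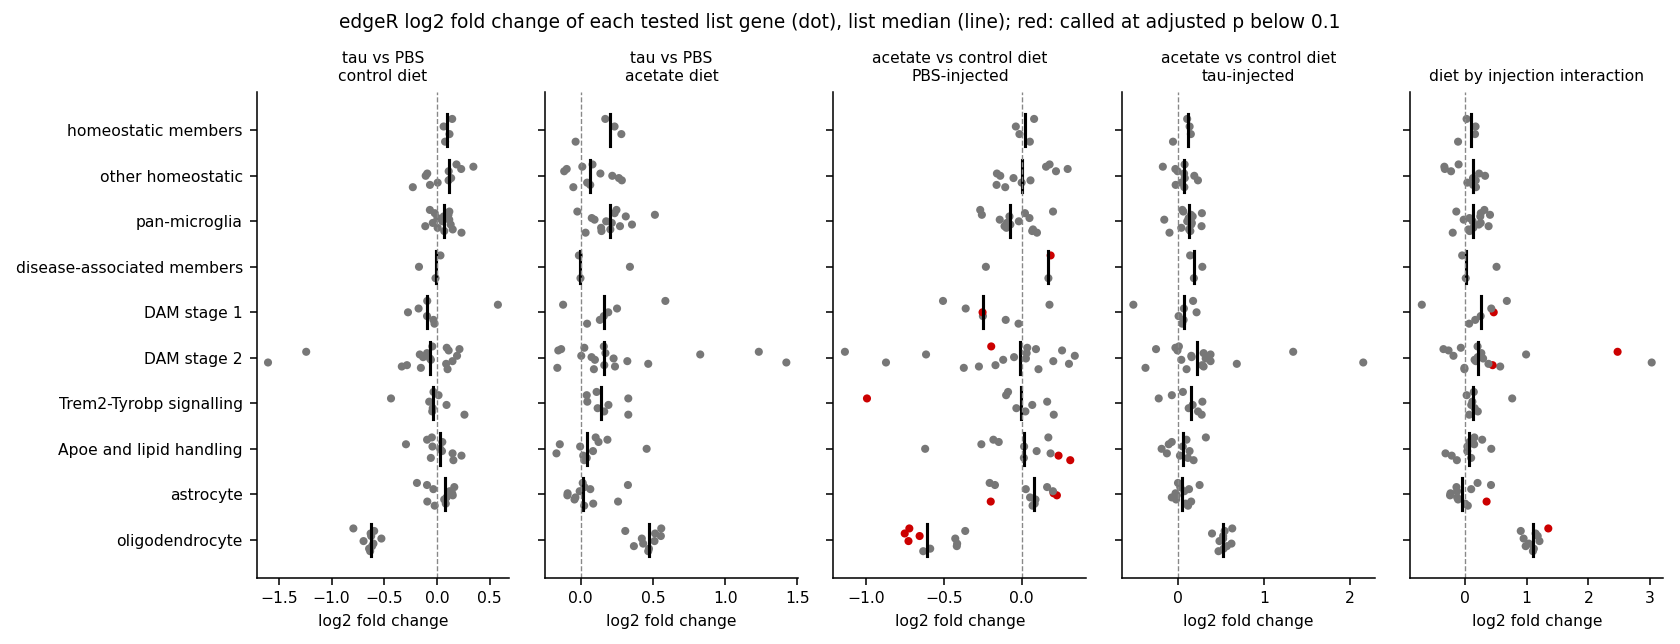
Log2 fold change (x axes, a scale for each panel) of the tested genes of 10 lists (y axis) in the 4 comparisons and the interaction, with 1 dot per gene, red where called at an adjusted p below 0.1, and a line at the list median. The medians of the 4 homeostatic genes and of the pan-microglia list are 0.20 for tau on the acetate diet with no red dot, whereas oligodendrocyte medians run from -0.63 to 1.11 across panels.

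The genes whose log2 CPM most resembled the mean of the 4 homeostatic genes over the 12 mice were Slco2b1 (Pearson r = 0.92), Ifngr1 (0.92), Nadk (0.92), Tmem43 (0.90) and Dhx38 (0.88). Those most like the mean of Trem2 and Tyrobp were Aldh16a1 (0.90), Tagln2 (0.85), Mcm10 (0.84), Lipe (0.84) and Ddx58 (0.84). They are the highest of all tested genes outside the 9 and are given as a description of these libraries. With group means removed, the r of the named genes ran from 0.53 (Dhx38) to 0.92 (Slco2b1). Trem2 and Tyrobp themselves had a Pearson r of 0.05 over the mice, and Mcm10 averaged only 0.461 CPM.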

How the data were processed

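Poly(A) RNA of 12 dorsal hippocampi, 1 per mouse, was sequenced, and groups were taken from the sample labels. Per the labels and the submitters' processing notes, the authors aligned reads to GRCm38 with STAR 2.5.2a and counted them per gene with HTSeq 0.9.1 on the reverse strand, and deposited raw counts, 1 column per mouse, without normalization. The annotation they used is not given in the sources used here. No column was left unused.

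From these counts, 14742 genes were kept by filterByExpr (minimum count 10, minimum total 15) and normalized by TMM (factors 0.99 to 1.01), and CPM are counts per 1000000 after TMM. Tests were robust quasi-likelihood F tests (edgeR 4.0.16, R 4.3.3), with 1 mean per group over all 12 mice and Benjamini-Hochberg adjustment over all genes tested. A gene counted as called if its adjusted p was under 0.1, the threshold the study used for these libraries. Standard errors come from the F statistic. Cst7 and Itgax, below the filter, were described by counts, exact Poisson intervals (95%) and a fit of all 19628 genes with a count. Each p measures the spread between these mice. The functions were tested on simulated data.

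The 9 genes and the lists were chosen with earlier results of these data known. Named list genes were, per list and comparison, up to 3 called genes with the smallest p, or otherwise at most the 1 with the smallest p. Scores are mean log2 CPM (prior count 2), each gene centred. Lengths and positions are from GENCODE M21 on GRCm38, and promoters from RefSeq (GRCm38.p6). Promoter entries matched by symbol were used for 6 of the 9 genes. Entries of the 9 on chromosome 18, where Csf1r lies, were not taken. Alternatives were DESeq2 1.42.0 and its size factors, no filter, an adjusted p below 0.05, the 6 compared mice alone, the replicate number as a block, the pan-microglia and the CA1 minus CA3 score as covariates, and each mouse left out. Totals of 12983233 to 20218340 reads leave counting error as the main limit for genes near the filter. Replicates differed by 3.42 to 7.45 times counting noise (chi-square per degree of freedom), so none was a repeat of another.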

Additional observations from a re-analysis of the deposited data

Results flagged for a closer look

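The effect of diet differed between PBS-injected and tau-injected mice for 6 of the 140 tested genes of the other lists, by the interaction test of edgeR's quasi-likelihood fit, where 1.56% of all genes were called, and none of them is among the 9 microglial genes. Fth1 had an interaction log2 fold change of 0.47 (adjusted p = 0.0466 by edgeR), a call lost without PBS-acetate mouse 2 and without Tau-acetate mouse 1 (0.42 to 0.56 over the 12 fits that leave out a mouse). For the oligodendrocyte gap junction gene Gjb1 it was 1.35 (adjusted p = 0.0466 by edgeR), lost without PBS-acetate mouse 2. Lgals3 had 2.47 (adjusted p = 0.0749 by edgeR), lost without 9 mice and kept without Tau-control mouse 3, Tau-acetate mouse 2 or Tau-acetate mouse 3. Csf1 had 0.45 (adjusted p = 0.0766 by edgeR), lost without 8 mice. The astrocyte water channel Aqp4 had 0.35 (adjusted p = 0.0755 by edgeR), lost without 6 mice, among them Tau-acetate mouse 1.

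Folr1, a choroid plexus marker, had an interaction of 2.92 (adjusted p = 0.0755 by edgeR), lost without 9 mice. The summed choroid plexus markers were 492 CPM in Tau-acetate mouse 3 and 69.1 to 210 CPM in the other 11 mice. No test of single samples standing apart was made, since groups of 3 are too small for it.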

How the results depend on the processing

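The call of Apoe with diet in PBS-injected mice, the only call among the 9 genes, was not stable. The count of the 9 genes called there went from 1 to 0 with DESeq2's size factors (adjusted p = 0.103 by edgeR), with the replicate number as a block (0.119), with the pan-microglia score (0.114) or the CA1 minus CA3 score (0.798) as a covariate, and at an adjusted p below 0.05. It was 0 to 1 when 1 mouse was left out, with 0 in 10 of 12 fits. The CA1 minus CA3 score separates the PBS-control from the PBS-acetate mice, so that fit cannot tell the score apart from diet. Replicate numbers did not pair the mice (same-number correlations of deviations -0.0862 to 0.144), and the replicate block changed no other call of the 9.

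Log2 fold changes that turned sign were at most 0.163 in absolute size before they turned, and were uncalled before and after. With the CA1 minus CA3 score as a covariate, tau on the control diet gave -0.029 for P2ry12 and 0.087 for Trem2, tau on the acetate diet 0.0086 for P2ry12, diet in PBS-injected mice -0.14 for P2ry12 and 0.20 for Tmem119, and the interaction 0.038 for P2ry12, -0.010 for Tmem119, -0.065 for Csf1r and -0.13 for Trem2. With the pan-microglia score, tau on the acetate diet gave 0.035 for P2ry12 and 0.031 for Apoe, and the interaction -0.050 for Csf1r and -0.069 for Trem2. The block gave -0.0058 for Trem2's interaction, and Trem2 with tau on the acetate diet was 0.00 with size factors (0.000464), on the 6 compared mice by edgeR (0.00354) and by DESeq2 (0.00038). The cause was not tested.

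With 1 mouse left out, tau on the control diet ranged from -0.17 to 0.15 for Trem2, -0.028 to 0.098 for Apoe, -0.47 to 0.38 for Cst7 and -0.56 to 0.28 for Itgax, the last 2 in fits added after the data were seen. Tau on the acetate diet ranged from -0.070 to 0.046 for P2ry12, -0.087 to 0.13 for Trem2 and -0.037 to 0.042 for Apoe, diet in PBS-injected mice from -0.029 to 0.089 for P2ry12 and -0.10 to 0.056 for Tmem119, and the interaction from -0.072 to 0.11 for Csf1r, -0.15 to 0.16 for Trem2 and -0.11 to 0.020 for Apoe.

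Over all genes, DESeq2 called 86 against 2 by edgeR for tau on the control diet, 121 against 20 on the acetate diet, 176 against 9 for diet in tau-injected mice and 438 against 230 for the interaction. For these, in order, the block gave 9, 25, 10 and 349, no filter 3, 37, 56 and 266, and an adjusted p below 0.05 gave 0, 0, 3 and 43. For diet in PBS-injected mice edgeR called 1303, and 541 at the stricter threshold. Low counts limit Cst7 and Itgax, and 3 mice a group limit the rest.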

Other observations

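Clec7a, a pattern recognition receptor of the second stage that was chosen here after its values were seen, had 24, 7 and 6 reads in PBS-control, 3, 5 and 14 in PBS-acetate, 7, 4 and 0 in Tau-control, and 31, 17 and 15 in Tau-acetate mice. All Tau-acetate mice lay above all Tau-control mice in CPM, where 5.71% of all genes with a count did so. Its interaction log2 fold change was 3.03 (standard error 0.97, adjusted p = 0.167 by edgeR's quasi-likelihood test), so it did not pass the threshold. Of the 18 listed second-stage genes besides Cst7 and Itgax, 12 had an interaction above 0 and 6 below, with 2 called (Csf1 and Lgals3).

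Of 5 blood markers, Alas2 alone passed the filter and was called in 0 comparisons. The 4 haemoglobin genes Hbb-bs, Hbb-bt, Hba-a1 and Hba-a2 are listed at 0 in all 12 mice, while Alas2 was at 2.14 to 5.31 CPM. Whether reads of these 4 genes were counted is not known, so their 0 is not read as an absence of blood RNA.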
